A study of Bos taurus with 14 samples.

Results

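The response of bovine endometrial stromal cells (BES) to interferon tau (IFNT) was followed in 6 of the 14 samples of the series, chosen by their titles. They were 3 samples incubated with phosphate-buffered saline (PBS) and 3 incubated with IFNT, for 2 h in both groups. Each sample was total RNA, labelled with Cy3 and hybridised to 1 microarray of a custom bovine Agilent design that carries 15208 non-control probes of 60 bases. The other 8 samples were bovine granulocytes given the same treatments. The labels describe the BES work as in vitro and state an IFNT concentration of 1 mg/mL, whose unit could not be checked here. They describe RNA extraction for granulocytes alone. They name no animal, age, breed, passage or culture, so errors and p-values cover only the spread of these 6 samples, which may be technical.

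Interferon tau is a type I interferon that the trophectoderm of the ruminant conceptus secretes before implantation. It acts on the uterus as the signal by which the mother recognises a pregnancy, in part by keeping the corpus luteum working. Type I interferons bind a receptor made of the chains IFNAR1 and IFNAR2 and activate Janus kinases. These phosphorylate STAT proteins, which enter the nucleus with IRF9 and switch on a large set of antiviral genes known as interferon-stimulated genes.

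Of the 15208 probes, 11309 were tested, those that the scanner software called well above background on at least 3 of the 6 arrays. Between 71.6% and 76.1% of probes were well above background on each array. Levels are given throughout as log2 of the processed signal relative to the array's own 75th percentile, which was an intensity of 2564 to 3173, so a level of 0 is the 75th percentile. Levels of different probes are not compared, since probes differ in how well they hybridise. Arrays of 1 group correlated at 0.9974 to 0.9983 across probes (Pearson's r), and arrays of different groups at 0.9915 to 0.9945. The median standard deviation (SD) of a probe was 0.08 over the PBS arrays and 0.07 over the IFNT arrays. All 6 arrays lay on 1 slide. PBS samples 1 and 2 were in its first array row, while PBS sample 3 and the 3 IFNT samples were in the second, so array row and treatment were partly confounded.

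The labelled cell type was checked against marker genes. Of 16 fibroblast and stromal markers with a probe, 15 were well above background on all 3 PBS arrays, among them VIM (mean level 4.53), COL3A1 (6.15), DCN (4.94) and LUM (3.22). COL1A2, COL3A1 and LUM were not well above background on any of the 8 granulocyte arrays. Other stromal markers were not particular to BES, and 7 of the 16 were well above background on all granulocyte PBS arrays. There VIM was at 4.67 and S100A4 at 4.69, and THY1 was higher (-1.88) than on BES PBS arrays (-4.39). On BES PBS arrays PDGFRA stood at -5.76 and NT5E at -6.82, and TCF21 was not well above background on any BES array. All 5 smooth muscle markers with a probe were also measured, with CNN1 at 5.12 and MYLK at 4.51, and summed to 67.6 to 76.7 times the 75th percentile on PBS arrays and 60.9 to 68.2 on IFNT arrays. Of 10 epithelial markers with a probe, 9 were well above background on every PBS array. KRT8 stood at 7.19, KRT19 at 5.95, CLDN3 at 5.22 and CDH1 at 3.50, while EPCAM was not well above background on any BES array. The other 5 stood between -6.95 (KRT7) and -3.70 (MUC1). On granulocyte PBS arrays KRT8 was at -5.16, while CLDN3 (4.16), CDH1 (1.52) and KRT19 (0.94) were well above background on all of them, so signal from these 3 probes was not particular to BES. Whether epithelial cells were present in BES was not tested. Their summed signal, in multiples of the 75th percentile, was 244 to 274 on PBS arrays and 251 to 255 on IFNT arrays, and that of the stromal markers was 243 to 245 and 249 to 254. Leukocyte markers summed to 2.28 to 2.36 on PBS arrays and 2.13 to 2.22 on IFNT arrays, with 6 of 16 well above background. Myeloid markers summed to 0.874 to 0.976 and 0.819 to 0.879, with 10 of 15 well above background on all PBS arrays, and endothelial markers to 0.0573 to 0.0621 and 0.0583 to 0.0651, with 2 of 8.

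Some transcripts were measured by a pair of probes that share part of their sequence, which gives a check within each array. Here 3 such pairs and the probe of MX1, one of the genes with the largest rises, are shown 5′ to 3′ with the shared stretch of a pair in capitals.
MX1 probe: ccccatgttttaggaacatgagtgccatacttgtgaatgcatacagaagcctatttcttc
RIGI probe: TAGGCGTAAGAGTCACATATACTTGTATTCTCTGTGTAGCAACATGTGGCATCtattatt
RIG-I-like transcript, ABR9555: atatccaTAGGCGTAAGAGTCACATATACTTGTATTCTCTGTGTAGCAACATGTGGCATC
PLAC8-like transcript, A_73_115944: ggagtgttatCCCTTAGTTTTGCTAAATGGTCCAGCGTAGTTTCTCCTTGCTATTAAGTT
hypothetical protein, ABR9209: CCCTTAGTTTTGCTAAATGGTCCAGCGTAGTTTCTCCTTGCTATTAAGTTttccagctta
LGALS3BP probe: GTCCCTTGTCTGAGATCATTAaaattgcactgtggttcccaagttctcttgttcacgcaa
unnamed transcript, ABR7745: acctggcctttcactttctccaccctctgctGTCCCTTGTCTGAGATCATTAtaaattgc
The RIGI probes share 53 bases and changed by 3.91 and 3.80 with IFNT (log2). The PLAC8-like pair shares 50 bases and changed by 6.32 and 6.21, and the LGALS3BP pair shares 21 bases and changed by 0.43 and 0.42. Over 236 pairs of tested probes that share at least 20 consecutive bases, leaving out probes of GAPDH, the changes of the members differed by a median of 0.04 and by up to 0.13 in 9 pairs of 10. The median size of change over all tested probes was 0.10, so such closeness says little about probes that respond. At least 1 probe passed the test of IFNT against PBS in 9 of the 236 pairs, and both passed in the same direction in 5. GAPDH, a glycolytic enzyme often used as a reference, is spotted 100 times with 1 sequence under separate probe names. The changes of those spots ran from -0.18 to 0.08 with a median of -0.10 and an SD of 0.04, and none passed the test. Not every pair was read alike. TEX261 fell by 0.39, while a probe that shares 30 bases with it gave -0.11 and did not pass. TRAF7 fell by 0.36, while a probe that shares 51 bases with it gave -0.24 and did not pass. ABR2172 passed at -0.25, and the POLR2E probe, which shares 54 bases with it, did not pass at -0.21. TPP1, a lysosomal protease, has 2 probes identical in all 60 bases, of which 1 fell by 0.30 (SE 0.05, adjusted p = 0.0376, limma) and the other gave -0.13 (SE 0.33, adjusted p = 0.838).

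After 2 h with IFNT, 414 of the 11309 probes (3.66%) passed the threshold, an adjusted p under 0.05 from limma with Benjamini-Hochberg adjustment over all probes tested. There were 259 higher with IFNT (2.29%) and 155 lower (1.37%), and 2874 probes had an unadjusted p under 0.05. The rises and the falls had different shapes. The median size of a rise was 0.64 on the log2 scale, and 85 probes rose at least 2-fold, 38 at least 4-fold, 27 at least 8-fold and 15 at least 16-fold. The median size of a fall was 0.39, and 2 probes fell at least 2-fold, ABR7823 (-1.36) and A_73_107840 (-1.03), neither with a gene symbol. These counts use fitted changes, which for 11 of the 85 rest on PBS values at background. Bounds for such probes, given below, can be smaller, as for KIF5C, fitted at 22.3-fold and bounded at 4.54-fold. Of the 27 rises of at least 8-fold, 7 were on probes that no PBS array measured well above background. Another 14 started below a level of -4, and 6 started between -4 and 0. No probe that started above the 75th percentile rose 8-fold, and the largest rise among them was 1.65.

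**Figure D1:**
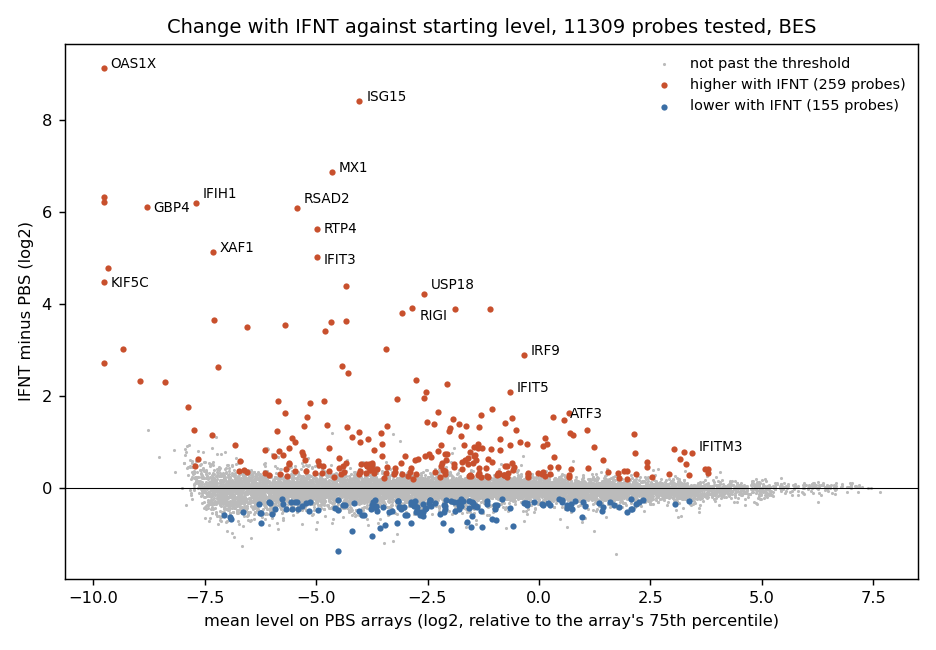
Change with IFNT (IFNT minus PBS, log2) against the mean level on the 3 PBS arrays (log2, relative to the array's 75th percentile) for the 11309 probes tested in BES. Orange points are the 259 probes higher with IFNT, blue points the 155 lower and grey points those not past the threshold; the largest rises start from low levels, and the falls stay close to 0.

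Leaving aside probes without a symbol, 5389 genes were tested, of which 123 rose (2.28%) and 71 fell (1.32%), with a median change of -0.03 over all of them. These shares and this median are the background for each group of genes below. All arrays of 1 treatment lay above all of the other in 33.5% of all probes, 12.5% higher with IFNT and 21.1% lower, and in 33.9% of genes with a symbol, 11.6% higher and 22.3% lower.

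The machinery that carries the interferon signal was measured by 11 genes for receptors, Janus kinases and STATs, of which 2 rose and none fell, with a median change of 0.06. The receptor chain IFNAR2 was at -0.37, -0.35 and -0.30 on the PBS arrays and -0.11, -0.17 and -0.18 on the IFNT arrays, a difference of 0.19 ± 0.05 (SE) that did not pass (adjusted p = 0.0753). IRF9, the DNA-binding partner of the STATs in the complex formed by type I interferons, was at -0.39, -0.28 and -0.31 with PBS and at 2.63, 2.54 and 2.51 with IFNT. The groups lay far apart beside their own spread, and IRF9 rose 7.41-fold (log2 2.89 ± 0.05, SE, n = 3 against 3, adjusted p = 1.2e-06, limma).

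Of 4 interferon regulatory factors, the transcription factors that amplify the response, 2 rose. IRF1 was at -4.69, -4.68 and -4.89 with PBS and at -3.34, -3.44 and -3.34 with IFNT, a rise of 1.38 ± 0.07 (SE, adjusted p = 1.3e-04). IRF3, which is activated by virus sensors, rose by 0.61 ± 0.11 (adjusted p = 0.0401) and lost its call in 5 of the 6 fits without 1 sample. IRF5 was at 0.04, 0.13 and 0.02 with PBS and at -0.13, -0.09 and -0.06 with IFNT, and did not pass (adjusted p = 0.122).

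ISG15 is a ubiquitin-like protein that is joined to other proteins and is a classical marker of the uterine response to the conceptus. Its level was -3.80, -4.15 and -4.13 on the PBS arrays and 4.48, 4.38 and 4.32 on the IFNT arrays. The group means were -4.03 ± 0.19 and 4.39 ± 0.08 (SD, n = 3), with no overlap, and the change was 8.42 ± 0.10 (SE, adjusted p = 4.5e-07, limma). USP18, the protease that removes ISG15 and also restrains the type I interferon receptor, went from -2.59, -2.47 and -2.65 to 1.84, 1.59 and 1.57, a rise of 18.8-fold. Of the 3 measured genes of this system, these 2 rose. The third, UBA7, which activates ISG15 for conjugation, stood at -0.97, -0.80 and -1.04 with PBS and at -0.97, -0.70 and -1.16 with IFNT, so its groups overlapped.

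Of 4 interferon-induced GTPases, 3 rose. MX1, which traps the nucleoproteins of several viruses, went from -4.48, -4.70 and -4.75 to 2.30, 2.22 and 2.18, a rise of 117-fold (log2 6.87 ± 0.08, SE, adjusted p = 4.5e-07). GBP4 and GBP5, guanylate-binding proteins, were not well above background on any PBS array and reached levels of -2.44 to -2.85 and of -4.75 to -4.95 with IFNT. The GBP5 probe was named by its gene number, while its description calls it similar to human GBP2. Against the lowest signal each PBS array could measure, under the scanner software's background correction, GBP4 was at least 27.3-fold and GBP5 at least 6.06-fold higher. The related GTPase MX2 was at -6.24, -6.93 and -7.25 with PBS and at -6.05, -6.19 and -6.22 with IFNT. All its IFNT arrays lay above its PBS arrays, but the difference of 0.65 ± 0.24 did not pass (adjusted p = 0.168), and 2 of its 3 PBS values were well above background.

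Of 5 measured genes of the 2-5 oligoadenylate and PKR pathway, 4 rose. These enzymes bind double-stranded RNA and either make the messenger that activates RNase L or halt translation. OAS1X was at background on every PBS array and stood at -0.51, -0.72 and -0.71 with IFNT, at least 113-fold higher. It entered the test only through its IFNT arrays. Its fitted log2 change of 9.12 rests on substitute PBS values, so the test measures no spread of OAS1X without IFNT. OAS2 was also at background with PBS and reached -6.49, -6.35 and -6.07, at least 2.25-fold higher. EIF2AK2, the kinase PKR, rose from -5.69, -6.01 and -5.89 to -3.90, -4.06 and -3.90, a rise of 3.76-fold. PDE12, a nuclease that degrades the 2-5 oligoadenylate messenger, rose by 0.26 ± 0.05 (adjusted p = 0.0411) and lost its call without any 1 of the 6 samples. On the ARS-UCD2.0 assembly, OAS2 and OAS1X lie on chromosome 17 with 1 protein-coding gene between them, and IQCD, 2 protein-coding genes from OAS2, rose as well (0.55). OAS2 lost its call with array row as a covariate (3.00, adjusted p = 0.0727), a fit that leaves PBS sample 3 as the comparison for the IFNT samples.

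Both measured members of the IFIT family, which bind viral RNA ends, rose. IFIT3 went from -4.92, -4.97 and -5.09 to 0.19, 0.05 and -0.15 (32.5-fold). IFIT5 went from -0.65, -0.67 and -0.65 to 1.41, 1.44 and 1.43 (4.24-fold), with the arrays of each group nearly on top of each other. They lie on chromosome 26 with 1 protein-coding gene between them. IFIT5 and IFIH1 were named here by the descriptions of their probes in the files.

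Of 18 sensors of nucleic acids and microbial patterns and their adaptors, 4 rose and none fell, with a median change of 0.08. The 3 RNA helicases of the RIG-I family rose most. IFIH1, the sensor MDA5, was at -7.84, -7.47 and -7.80 with PBS, well above background on 1 of these arrays, and at -1.36, -1.53 and -1.59 with IFNT, a change of 6.21 ± 0.11 (adjusted p = 1.2e-06). RIGI went from -2.91, -2.84 and -2.76 to 1.17, 1.01 and 1.04 (log2 3.91), and DHX58, the regulator LGP2, from -4.75, -4.49 and -4.72 to -0.95, -1.04 and -1.13 (12.3-fold). The groups of each were separated by many times their own range. The endosomal RNA receptor TLR3 rose by 0.56 ± 0.06 (adjusted p = 0.00616), from -4.39, -4.23 and -4.33 to -3.80, -3.80 and -3.68, and lost its call with array row as a covariate (0.57, adjusted p = 0.0835).

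**Figure D2:**
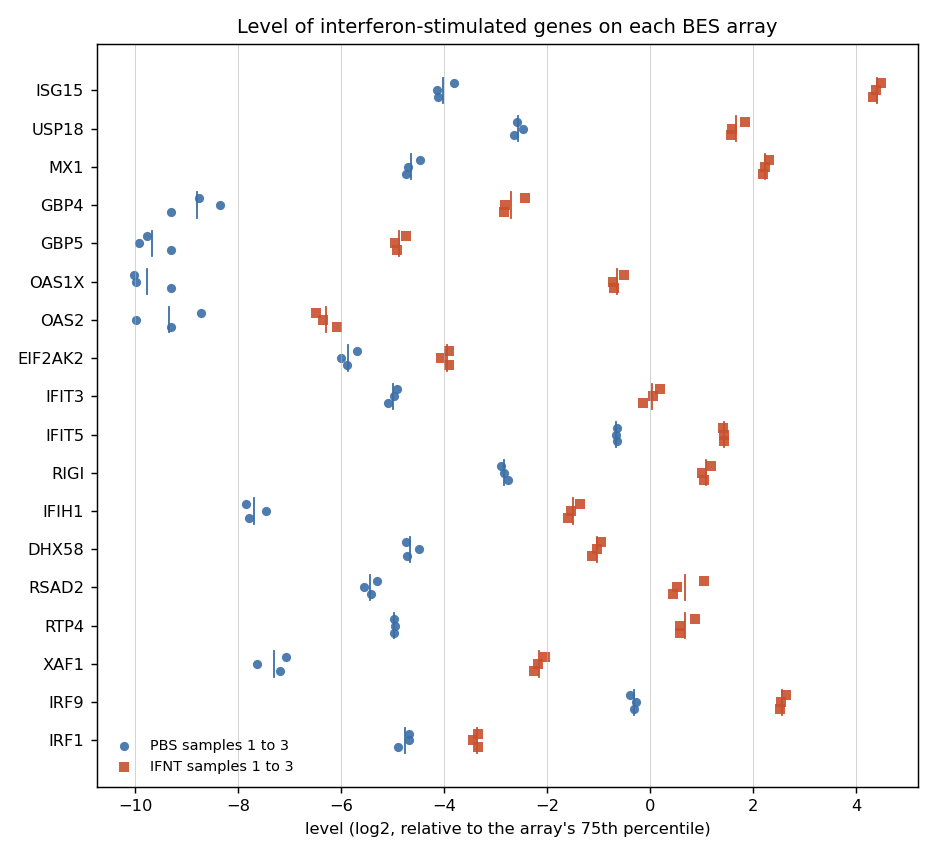
Level of 18 genes of the interferon response on each BES array (log2, relative to the array's 75th percentile). Blue circles are the 3 PBS samples, orange squares the 3 IFNT samples, staggered in sample order, and vertical bars the group means. The 18 were picked from genes that rose, so the lack of overlap between their groups is set by that choice. GBP4, GBP5, OAS1X and OAS2 are at background on the PBS arrays, where their points show substitute values.

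Of 31 further interferon-stimulated effectors, 19 rose and none fell, with a median change of 0.47. RSAD2, the antiviral enzyme viperin, went from -5.31, -5.56 and -5.43 to 1.04, 0.52 and 0.43 (68.4-fold), and IFNT sample 1 was the highest. RTP4, a chaperone of membrane receptors, went from -4.98, -4.96 and -4.97 to 0.86, 0.57 and 0.59 (49.9-fold). XAF1, a pro-apoptotic partner of XIAP, went from -7.08, -7.64 and -7.19 to -2.05, -2.18 and -2.25 (35.4-fold). Each of these 3 genes had PBS and IFNT levels several log2 units apart.

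Members that add ADP-ribose to proteins rose more moderately. PARP9 went from -3.42, -3.42 and -3.43 to -0.34, -0.44 and -0.42 (8.15-fold, adjusted p = 8.4e-07), and PARP12 by 1.96 ± 0.09 (SE). Members of the TRIM family also rose. TRIM21, an antibody receptor inside the cell, rose by 2.36 ± 0.11, and TRIM14, an adaptor of RNA sensing, by 1.08 ± 0.08. TRIM38 was at background on all PBS arrays and at least 1.99-fold higher with IFNT, and lost its call with normexp background correction (0.26, adjusted p = 0.0656). PML, the organiser of nuclear bodies, rose by 1.26 ± 0.05, and SP110, another nuclear body protein, by 1.73 ± 0.08. TREX1, an exonuclease that degrades DNA in the cytosol, rose by 1.52 ± 0.05, and N4BP1, an RNA-degrading inhibitor of inflammatory signalling, by 1.17 ± 0.05.

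IFITM1 and IFITM3, membrane proteins that block the entry of viruses, rose by 1.34 ± 0.05 and 0.77 ± 0.05. IFITM3 was already high without IFNT, at 3.41, 3.40 and 3.47, and reached 4.20, 4.13 and 4.26. Smaller rises came from NCOA7 (0.68), CNP (0.47), LGALS3BP (0.43), NMI (0.36) and MOV10 (0.33). With array row as a covariate CNP, NMI and MOV10 did not pass (adjusted p of 0.0513, 0.0745 and 0.114).

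Among the 25 largest rises of genes with a symbol were several that the lists above do not hold. KIF5C, a motor protein of microtubules, was at background on all PBS arrays and reached -4.84, -5.58 and -5.45, at least 4.54-fold higher. ABHD1, a hydrolase, went from -3.16, -3.10 and -3.29 to -1.04, -1.28 and -1.43 (3.82-fold), and TAGAP, a GTPase-activating protein known from T cells, from -5.42, -5.08 and -4.88 to -3.17, -3.42 and -3.21 (3.64-fold). Other genes were chosen after their values were seen. SHFL, an inhibitor of viral frameshifting, rose by 1.65 ± 0.13, the mitochondrial carrier SLC25A30 by 1.60 ± 0.05, the general transcription factor GTF2B by 1.54 ± 0.05 and the ubiquitin ligase TRIM6 by 1.44 ± 0.13. PTPRE, a receptor-type tyrosine phosphatase, rose by 1.23 ± 0.13 and complement C4A by 0.88 ± 0.09, and neither passed when array row was a covariate (adjusted p of 0.078 and 0.0891). SERTAD1, a regulator of the cell cycle, rose from 3.05, 3.01 and 3.01 to 3.89, 3.89 and 3.87. TRMT13 and SASS6, which have no protein-coding gene between them on chromosome 3, rose by 0.82 and 1.08.

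Of 12 inhibitors of cytokine signalling, 2 rose and none fell, with a median of 0.06. DUSP6, a phosphatase that inactivates ERK kinases, went from 1.18, 1.06 and 1.05 to 1.50, 1.54 and 1.59 (0.45 ± 0.06, adjusted p = 0.00994). SPRY2, another brake on growth factor signalling, rose by 0.44 ± 0.08 (adjusted p = 0.0408). When array row was a covariate neither passed (adjusted p of 0.077 and 0.173). SOCS3, the classical feedback inhibitor of cytokine receptors, was at -6.61, -6.22 and -6.84 with PBS and at -6.45, -6.35 and -6.51 with IFNT, so its groups overlapped.

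Some genes of antigen presentation with a symbol rose at 2 h, each by less than 2-fold. Of 13 genes in the MHC class I list, 2 rose and none fell, with a median change of 0.26, and 6 of them did not overlap between the groups in the higher direction (background 11.6%). B2M, the invariant light chain of class I molecules, went from 3.32, 3.32 and 3.25 to 3.78, 3.86 and 3.85 (0.53 ± 0.05, adjusted p = 0.00195). PSME1, a subunit of the proteasome activator, rose by 0.25 ± 0.04 (adjusted p = 0.0361) and lost its call without any 1 of the 6 samples. The immunoproteasome subunit PSMB8 (0.26) and the peptide transporter TAP2 (0.30) did not pass. In the MHC class II list of 6 genes, BOLA-DMB, a chain of the class II peptide loader, rose (0.36 ± 0.05, adjusted p = 0.0157).

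Of 17 chemokines and their receptors, 3 rose and none fell, with a median of -0.05. CCL2, which attracts monocytes, went from -2.11, -2.30 and -2.15 to -1.65, -1.62 and -1.61 (0.56 ± 0.06, adjusted p = 0.00563). CXCL10, which attracts T cells and is a classical interferon target, went from -1.04, -0.95 and -1.41 to -0.56, -0.45 and -0.45 (0.64 ± 0.12, adjusted p = 0.0444). The rise of CXCL10 was small beside those of the antiviral genes, and its call was lost in 5 of the 6 fits without 1 sample. ACKR4, a scavenging chemokine receptor, was at background on all PBS arrays and at least 1.34-fold higher with IFNT, and lost its call with array row as a covariate (adjusted p = 0.055). Of 18 cytokines and cytokine receptors, 3 rose. OSMR, a receptor chain for oncostatin M, went from 0.27, 0.12 and 0.16 to 1.22, 1.11 and 1.13 (0.97 ± 0.06). TNFSF13B, or BAFF, which keeps B cells alive, was at least 2.62-fold higher from background, and CSF1, the macrophage growth factor, rose by 0.54 ± 0.10 (adjusted p = 0.0435), a call lost in 5 of the 6 fits without 1 sample.

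Of 16 immediate-early transcription factors and related genes, 3 rose. ATF3, a transcription factor of the stress response, went from 0.64, 0.62 and 0.40 to 2.04, 1.89 and 2.20 (2.81-fold, adjusted p = 4.4e-04), and ZFP36, which destabilises cytokine mRNAs, from -1.85, -1.68 and -1.71 to -0.60, -0.61 and -0.64 (2.19-fold). FOS rose by 0.54 ± 0.08 (adjusted p = 0.0203) and lost its call in 4 of the 6 fits without 1 sample. Of 26 caspases, death receptors and survival genes, 4 rose and 1 fell, with a median of -0.03. CASP8, the initiator caspase of death receptors, rose by 1.35 ± 0.15 and the inflammatory caspase CASP4 by 0.96 ± 0.06. The death receptor FAS rose by 0.33 ± 0.04 and the inhibitor of apoptosis BIRC3 by 0.28 ± 0.04, a call lost in each of the 6 fits without 1 sample, and GADD45G, a growth arrest gene, fell by 0.68 (SE 0.10).

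**Figure D3:**
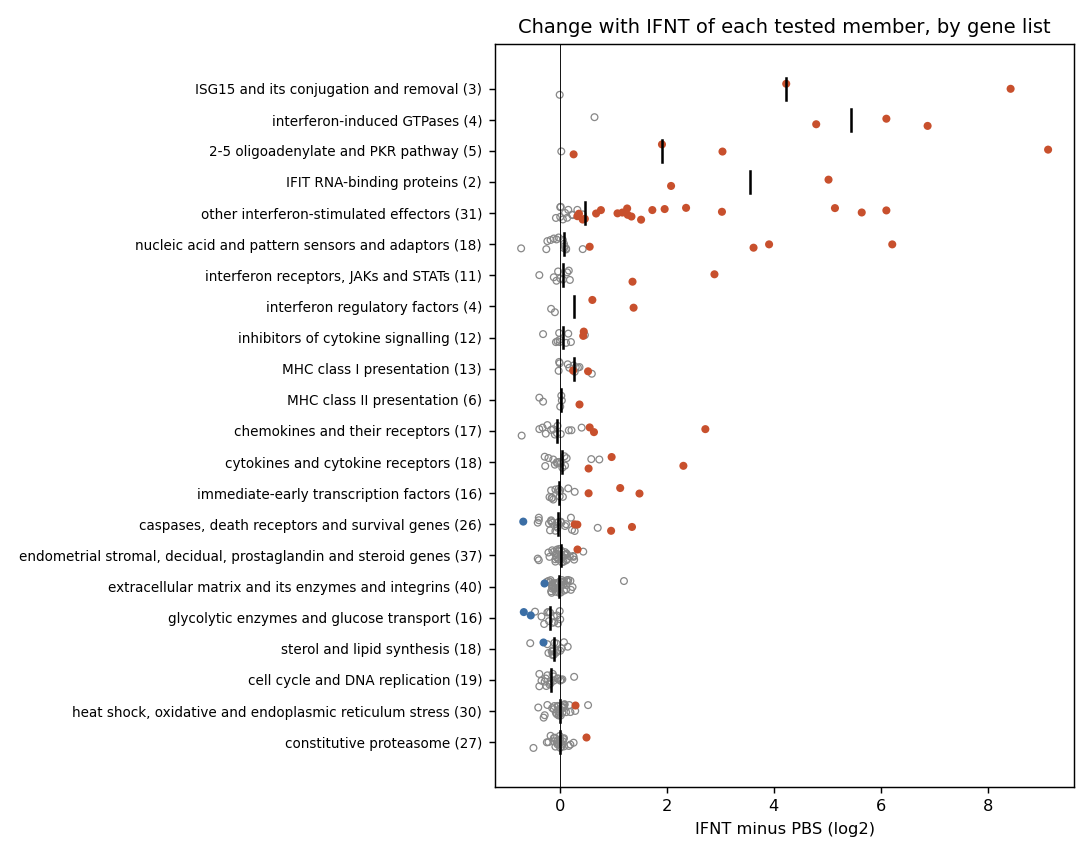
Change with IFNT (log2) of each tested member of 22 gene lists, with the number of members tested in parentheses. Orange points rose and blue points fell past the threshold, open points did not pass, and black bars are list medians. The medians of the ISG15, GTPase, 2-5 oligoadenylate and PKR, IFIT and further effector lists lie to the right. The other medians, that of the sensors (0.08) among them, stay within 0.26 of 0.

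In the lists for the stroma itself the shares that passed were near the 3.6% of all genes. Of 37 genes for endometrial stroma, decidua, prostaglandins and steroid response, 1 passed (2.7%), MUC1, a surface mucin, at 0.33 ± 0.06 (adjusted p = 0.0468, limma). Of 40 genes of the extracellular matrix, 1 passed (2.5%), the basement membrane collagen COL4A1, which fell by 0.30 (SE 0.04). Of 15 fibroblast and stromal markers tested, 1 passed (6.67%), and the median change of the list was 0.07. In 6 of them every IFNT array lay above every PBS array (background 11.6%), and in 3 every one lay below (background 22.3%). The marker that passed was THY1, a fibroblast surface protein, which fell by 0.36 (SE 0.06). Its call was lost in 10 of the 15 alternatives, each fit without 1 sample among them. Of 30 stress genes, DNAJA1, an HSP40 co-chaperone, rose by 0.29 ± 0.04, and of 27 constitutive proteasome genes PSMD6 rose by 0.50 ± 0.08. None of 19 cell cycle genes and none of 28 genes of TGF-beta, Notch, Wnt and growth factor signalling passed in limma, at a background of 3.6%.

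The falls were small, and no gene with a symbol that passed fell 2-fold. ARFGAP1, a regulator of Golgi vesicle coats, went from -2.11, -1.67 and -2.17 to -3.01, -2.66 and -2.96, a fall of 0.89 (SE 0.16, adjusted p = 0.0375). GFOD2, an oxidoreductase-like protein, fell by 0.76 (SE 0.11), MOGS, the first glucosidase of N-glycan trimming, by 0.75 (SE 0.12), and PDE2A, which degrades cyclic nucleotides, by 0.74 (SE 0.12). TCN2, the vitamin B12 carrier transcobalamin, went from -1.58, -1.42 and -1.85 to -2.32, -2.32 and -2.38. These genes were named for falls without overlap, so their separation is set by that choice.

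Of 16 genes of glycolysis and glucose transport, 2 fell and none rose, with a median of -0.19. The groups of 11 did not overlap, in the lower direction (background 22.3%). GPI, which converts glucose-6-phosphate to fructose-6-phosphate, went from -1.03, -0.83 and -1.28 to -1.67, -1.69 and -1.76, a fall of 0.67 (SE 0.11, adjusted p = 0.0327). PFKFB3, which makes the main activator of phosphofructokinase, fell by 0.54 (SE 0.08, adjusted p = 0.0211). HK1 (-0.46), PGAM1 (-0.34), PFKL (-0.29) and PGK1 (-0.13) did not pass. The list's median was -0.12 with array row as a covariate and -0.18 to -0.20 with median scaling, normexp or quantile normalization. Of 18 genes of sterol and lipid synthesis, MVD, an enzyme of the mevalonate pathway, fell by 0.31 (SE 0.05, adjusted p = 0.0272).

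Other falls came from genes of diverse function. MNT, a transcriptional repressor that partners MAX, was between -1.55 and -1.43 with PBS and at -2.21, -1.98 and -2.05 with IFNT (a fall of 0.59, SE 0.07). DXO, a decapping enzyme for faulty mRNA caps, fell by 0.57 (SE 0.07), NIT1, an amidase, by 0.55 (SE 0.06), APBB1, an adaptor of the amyloid precursor protein, by 0.58 (SE 0.08), ADPRHL1, an ADP-ribosylhydrolase-like protein, by 0.57 (SE 0.07) and the deubiquitinase UCHL1 by 0.51 (SE 0.09). ILK, a kinase of integrin adhesions, fell by 0.35 (SE 0.05) and lies on chromosome 15 with 1 protein-coding gene between it and TPP1. PRPF6, a splicing factor, fell by 0.44 (SE 0.08), and a probe that shares 26 bases with it fell by 0.37. ERRFI1, an inhibitor of the EGF receptor, rose by 0.31, and a probe that shares 40 bases with it rose by 0.35.

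**Figure D4:**
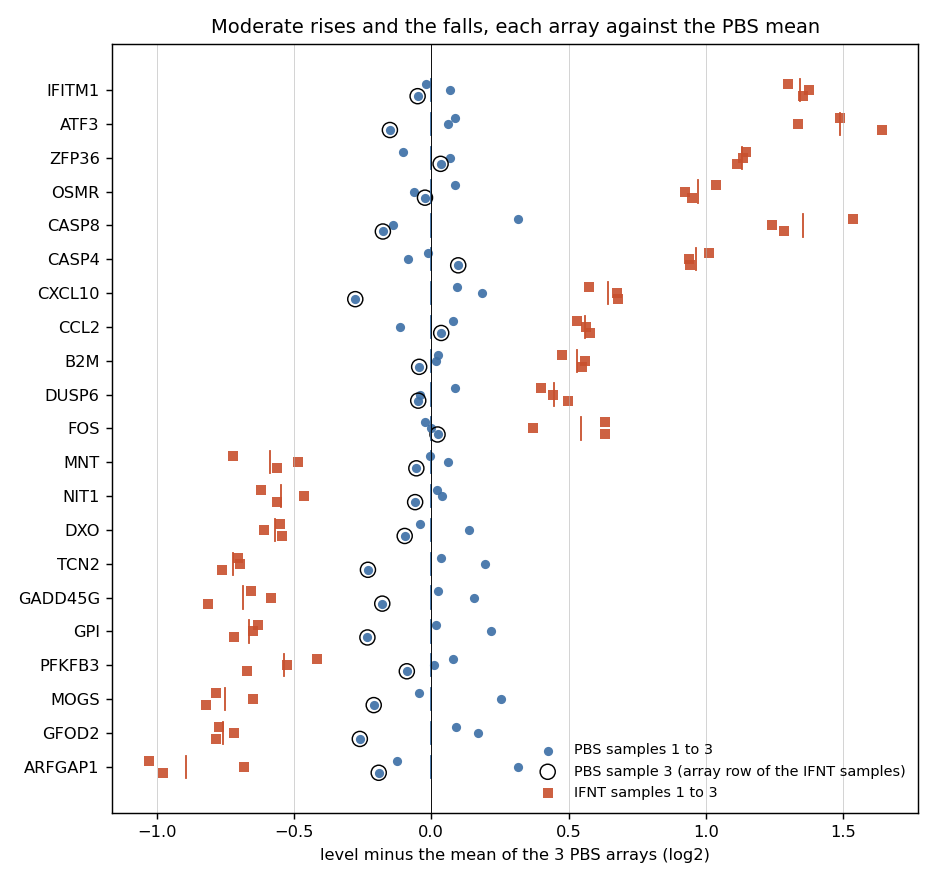
Level on each BES array minus the mean of the 3 PBS arrays (log2) for 11 genes that rose and 10 that fell. Blue circles are PBS samples, orange squares IFNT samples and bars group means; the ringed point is PBS sample 3, which is the lowest PBS value in all 10 falls.

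The calls were set beside the position of PBS sample 3, the only PBS sample in the array row of the IFNT samples. PBS sample 3 had the lowest of the 3 PBS values in 99 of the 155 probes called lower (63.9%), against 36.0% of all probes tested. It had the highest in 119 of the 259 called higher (45.9%), against 34.1% of all probes. It differed from the mean of PBS samples 1 and 2 in the direction of IFNT in 78.1% of falls, 62.2% of rises and 65.1% of all probes. The median fall of these 155 probes was 0.42 against PBS samples 1 and 2 (IFNT minus PBS -0.42) and 0.33 against PBS sample 3 (-0.33), within the row. For the 259 rises the same medians were 0.66 and 0.61. With array row as a covariate, 124 of the 259 rises and 4 of the 155 falls kept their calls, and each of the 414 probes kept its direction. Of the named rises, IRF3, IQCD, TRMT13, PDE12, CCL2, CSF1, FOS, FAS, BIRC3, PSME1, BOLA-DMB, DNAJA1, PSMD6, MUC1, ERRFI1 and GDAP2 (0.26) also lost their calls in that fit, beside those for which this is given above, and of the 20 named falls GFOD2 alone kept its call. Without PBS sample 3, 303 probes were higher and 322 lower, and without any 1 of the other samples 159 to 190 were higher and 30 to 48 lower. In the fit with array row an effect of array row and the loss of 2 PBS samples cannot be told apart.

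**Figure D5:**
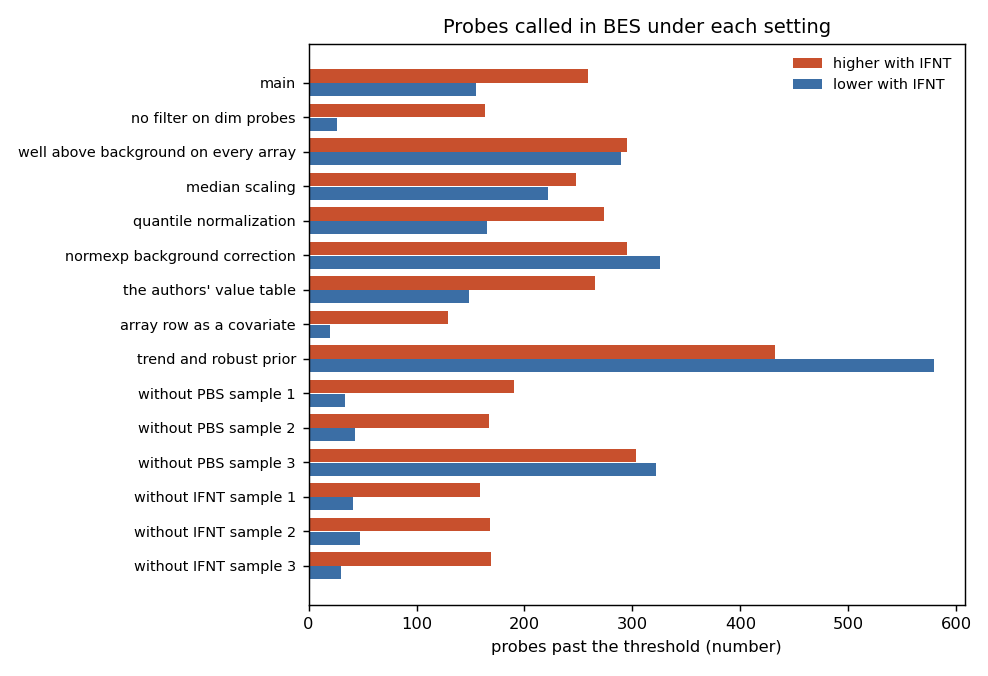
Number of probes higher (orange) and lower (blue) with IFNT in BES at an adjusted p under 0.05, in the analysis as reported (259 and 155, labelled main) and under 14 of the 15 other settings, all but the fit with the replicate number. The number of falls ranges from 20 to 579, and the number of rises from 129 to 432.

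Over all alternatives but the strictest filter, which removes probes at background, 120 of the 259 rises kept their calls in each of 14 settings, 79 of them rises of at least 2-fold. Of the 155 falls, 3 did so, among them the probes ABR7778 (-0.57) and ABR4281 (-0.42), which have no symbol. The sizes of the rises from low levels depended on the background correction. With normexp in place of the scanner software's correction, IFIH1 changed by 3.81, OAS1X by 4.88, MX1 by 6.21, RSAD2 by 5.13, RTP4 by 4.88, IFIT3 by 4.25 and XAF1 by 3.07. GBP4 changed by 2.92 and GBP5 by 1.34, KIF5C by 1.05, TAGAP by 1.27, EIF2AK2 by 1.14, OAS2 by 0.59, TNFSF13B by 0.63 and ACKR4 by 0.36, and of these genes ACKR4 lost its call. For OAS1X, GBP4, GBP5, KIF5C, OAS2, TNFSF13B and ACKR4 the normexp changes were smaller than the "at least" folds given above. Those folds therefore hold only under the scanner software's correction. TNFSF13B changed by 2.90 with array row as a covariate, against 2.31 without it.

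Probes without a gene symbol rose too. Of the 85 probes that rose at least 2-fold, 39 had no symbol, as had 5659 of the 11309 tested, and some of these share sequence with a named gene's probe, such as ABR9555 with RIGI. The largest were the PLAC8-like pair shown above, at background on all PBS arrays and at least 16.3-fold (A_73_115944) and 15.1-fold (ABR9209) higher with IFNT. ABR4291 went from -4.25, -4.36 and -4.37 to 0.25, -0.06 and -0.00 (21.0-fold), and ABR9446 from -1.01, -1.07 and -1.20 to 2.98, 2.74 and 2.69 (14.9-fold). A_73_104461, described in the file as an unidentified transcript on bovine chromosome 11 at 70614998 to 70615720, rose by 3.91 (log2). A pair of probes, A_73_102209 and A_73_100102, were described as unidentified transcripts on chromosome 16 at 41294192 to 41295170 and 41296368 to 41297020, 1198 bases apart, and rose by 3.64 and 3.56. These positions are the file's own, and its genome build is not given in the sources used here. ABR7561, described as similar to a member of the poly (ADP-ribose) polymerase family, rose by 1.51, and ABR7972, described as similar to an MHC class I gene, by 1.41. These probes were chosen after their values were seen.

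The comparison with granulocytes tested whether responses differed between the cell types, over all 14 arrays. BES and granulocyte arrays lay on different slides, and on the granulocyte slide array row and treatment coincided, so these cannot be told apart from cell type and treatment. Of the 116 genes that rose in BES and were tested in granulocytes, 90 also rose there (77.6%), where 17.7% of the genes tested in both rose. They were 10.9% of the 829 genes that rose in granulocytes. Of 64 genes that fell in BES and were tested in granulocytes, 21 also fell there (32.8%), where 26.8% of genes fell, and they were 1.67% of the 1256 granulocyte falls. The difference between the responses passed for 92 of the 123 BES rises (74.8%) and 24 of the 71 BES falls (33.8%), against 26.9% of the genes tested in BES. These rises and falls were chosen by their BES change, which is part of the difference, so a share above 26.9% is partly set by that choice.

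Antiviral genes differed in both directions. Of the 63 genes tested in the lists for the ISG15 system, GTPases, 2-5 oligoadenylate and PKR pathway, IFIT family, sensors and further effectors, the response was more positive in BES for 19 (background 13.9%) and more negative for 21 (background 13%). MX1 rose by 6.87 in BES and 2.41 in granulocytes, a difference of 4.47 ± 0.10 (SE, adjusted p = 2.7e-11, limma). XAF1 rose by 5.14 and 0.56 and PARP9 by 3.03 and 0.58. Other antiviral genes rose more in granulocytes. MOV10 rose by 0.33 in BES and 2.78 in granulocytes, TREX1 by 1.52 and 2.73, PML by 1.26 and 2.91 and IFIT5 by 2.08 and 2.64, and UBA7, which did not pass in BES, rose by 2.08 in granulocytes. CXCL10 rose by 0.64 in BES and 6.31 in granulocytes, and NCOA7 by 0.68 and 3.68. There were 8 genes called higher in BES and lower in granulocytes and 5 called the reverse way. Among the 8, DUSP6 and PTPRE changed by 0.45 and 1.23 in BES and by -0.92 and -0.63 in granulocytes, FOS by 0.54 and -0.19, and BIRC3 by 0.28 and -0.38, with the difference past the threshold in all 4.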

How the data were processed

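Per the file headers and the submitters' processing notes, the authors' arrays were read with Agilent Feature Extraction 9.5. The deposited processed signal is an intensity that the software has corrected for background and spatial trend, with a surrogate in place of a signal at background. In the authors' deposited value table the unit is log2, and its values equal log2 of the processed signal minus 1 constant per array.

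Here, log2 processed signals were scaled per array by the 75th percentile over its non-control probes. Spots marked as outliers or non-uniform were left out (0 to 4 per array), as were 536 control spots. IFNT was compared with PBS in limma 3.58.1 (R 4.3.3, two-sided moderated test, Benjamini-Hochberg threshold 0.05, no covariate). The contrast with granulocytes took probes well above background on at least 3 BES or 4 granulocyte arrays (12046 probes). The script was tested on simulated data. The 3 arrays per group limit the precision.

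Symbols came from accessions, gene numbers, symbols or descriptions in the files, matched to the bovine RefSeq table of ARS-UCD2.0. They were found for 7142 of 15208 probes, 985 of them by a description as similar to a human gene and 3 by hand. Each gene is represented by its tested probe with the highest mean level. "At least" folds set each dim PBS value at no less than the lowest signal called well above background on its array. They hold under the scanner software's background correction. Probes at background on all PBS arrays entered the test through their IFNT arrays, so their p-values rest on PBS values at background. The genes named are the 25 largest rises and 15 largest falls without overlap, all tested members of 7 signalling and antiviral lists, up to 6 of each other list and all of it that passed, the 6 highest markers, and the 8 largest differences from granulocytes in each direction. Lists and samples were chosen with earlier results of these data known. Of the 209 genes that rule selects, 2 are not reported here, though counts include them. Promoter motifs were not searched. Alternatives covered the dim-probe filter, the scaling, the background correction, the value table, array row, replicate number, the variance prior and each sample left out.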

Additional observations from a re-analysis of the deposited data

Results flagged for a closer look

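The response to IFNT differed between BES and granulocytes, by a test of the difference itself, in 3197 of 12046 probes (26.5%). It was more positive in BES for 1786 probes and more negative for 1411 (limma, adjusted p under the threshold). Cell type coincides with slide in this comparison, so their parts cannot be told apart.

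The largest differences towards BES (log2, response in BES minus response in granulocytes) were ISG15 (6.97), OAS1X (6.66), XAF1 (4.58), MX1 (4.47), IFIH1 (3.67), PARP9 (2.45), GBP4 (2.40) and ACKR4 (2.34). The ISG15 spots were saturated on all 4 granulocyte IFNT arrays, so its difference is an upper bound. OAS1X, GBP4 and ACKR4 were at background on the BES PBS arrays. With each value at background set at no less than the lowest measurable signal, their differences were 4.36, 1.07 and 0.22, and that of IFIH1, at background on 2 of 3 BES PBS arrays, was 3.37. The GBP4 difference was -0.67 with normexp background correction.

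The largest differences towards granulocytes were CXCL10 (-5.67), DECR2 (-4.79), ADM (-4.11), AXL (-3.17), GDAP2 (-3.16), ZNF503 (-3.10), NCOA7 (-3.00) and ARHGEF17 (-2.94). In BES, ADM, a vasodilator peptide, changed by 0.25, DECR2, a peroxisomal enzyme of fatty acid oxidation, by 0.20, AXL, a receptor tyrosine kinase, by 0.03 and ZNF503 by -0.19, none past the threshold, while GDAP2 rose by 0.26, a call lost in 11 of 15 alternatives, each fit without 1 sample among them. ARHGEF17 was not well above background on any granulocyte PBS array, and its difference with the lowest measurable signal was -0.84.

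Of the 116 genes that rose in BES and were tested in granulocytes, 8 were called lower there, where 26.8% of genes fell. Their differences ran from 0.45 to 1.86, among them PTPRE (1.86), DUSP6 (1.37), FOS (0.74) and BIRC3 (0.65). Of the 64 that fell in BES and were tested in granulocytes, 5 were called higher there, where 17.7% of genes rose. Their differences ran from -1.93 to -0.42.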

How the results depend on the processing

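The counts of probes called in BES, 259 higher and 155 lower, moved with the processing. With no filter on dim probes 163 were higher and 26 lower, with array row as a covariate 129 and 20, and with an intensity trend and robust prior 432 and 579. Falls numbered 289 when every array had to be well above background and 326 with normexp background correction. Leaving out 1 sample gave 159 (IFNT sample 1) to 303 (PBS sample 3) rises and 30 (IFNT sample 3) to 322 (PBS sample 3) falls. Median scaling (248 and 222), quantile normalization (274 and 165) and the authors' value table (265 and 149) stayed within 1.5 times. With the replicate number as a block, 205 were higher and 113 lower. The labels do not say whether the numbers pair the samples. Deviations of same-numbered samples correlated at 0.047, 0.059 and -0.013, and those of differently numbered samples at -0.125 to 0.089. With 3 samples per group this cannot decide whether they were paired. The counts of differences from granulocytes stayed within 1.5 times under each alternative run (1465 to 1986 and 1224 to 1479); array row could not be added to that fit.

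Of the 73 named genes that rose, 45 kept their calls in each alternative that tested them, and of the 20 named that fell, none did; 26 and 19 lost the call with array row as a covariate. Reversals were SOCS3, at 0.12, which gave -0.08 with normexp and -0.02 (without PBS sample 3) to 0.29 (without PBS sample 2) when 1 sample was left out, and the difference of GBP4 from granulocytes, 2.40, which gave -0.67 with normexp. The cause was not tested. Signals near background limit the sizes of the largest rises.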

Other observations

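None of 19 cell cycle genes and none of 5 smooth muscle markers passed the test (limma). Of the cell cycle genes, 8 had every IFNT array below every PBS array, where 22.3% of all genes with a symbol did, and 1 had every IFNT array above, CCND3 (0.27, adjusted p = 0.0641), a cyclin of the G1 phase chosen after its values were seen. CCND3 passed with the strictest filter, with normexp and with an intensity trend and robust prior. The median change of the list was -0.17, against -0.03 for all genes. MCM5, a subunit of the replicative helicase, was at -1.24, -0.90 and -1.13 with PBS and at -1.50, -1.44 and -1.47 with IFNT (adjusted p = 0.0743, limma). MCM7 (-0.19) and AURKA (-0.28), a mitotic kinase, did not pass either. The median was -0.11 with array row as a covariate.

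The 5 smooth muscle markers had a median change of -0.18, which was -0.07 with array row as a covariate. In 2 of them every IFNT array lay below every PBS array (background 22.3%), a count too small to set apart from that share. ACTA2, the smooth muscle actin of myofibroblasts, which stands in the stromal marker list, was at 4.63, 4.79 and 4.43 with PBS and at 4.18, 4.29 and 4.29 with IFNT (adjusted p = 0.0956), and the smooth muscle marker DES, the filament protein desmin, at 1.30, 1.25 and 1.12 and at 0.77, 0.96 and 0.94 (adjusted p = 0.0639). In ACTA2 and DES the IFNT arrays lay below the PBS arrays, and PBS sample 3 was the lowest PBS value.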
